A study of Mus musculus with 2 samples.

Results

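The MHC class II presentation genes are described here in the interstitial cells of infarcted mouse hearts, as 9 genes taken by symbol: H2-Aa, H2-Ab1, H2-Eb1, Cd74, H2-DMa, H2-DMb1, H2-DMb2, H2-Oa and Ciita. They were looked up among the 15181 genes named in any of the 22 deposited tables that set one library against the other, 18 for cell clusters and 4 for fibroblast subclusters. A value was found for 8 of the 9 genes, and H2-Oa was in none of the 22 tables. The rule picks genes by name and sets no limit on a measured value.

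The series holds 2 single-cell libraries, 1 per genotype, so no difference here has a replicate check and no test is given. The control library came from PostnMCM hearts, which carry a tamoxifen-inducible Cre driven by the Postn gene, a gene of activated fibroblasts. The other library came from Yapfl/fl;Wwtr1fl/+;PostnMCM hearts, in which that Cre is directed at the floxed copies of Yap1 (2 alleles) and Wwtr1 (1 allele), which encode transcriptional coactivators of the Hippo pathway. Mice of both genotypes also carried the R26-eGFP reporter, were 8 to 10 weeks old when myocardial infarction was made, and ate chow with 0.4 g/kg tamoxifen citrate from then on. Hearts were taken 6 days after infarction by the sample labels and 7 days by the study's methods. Viable cells were sorted from the digested ventricles and captured with 10x Chromium v3.1 chemistry. How many hearts each library pooled and on which strain background the genotypes were kept are not given in the sources used here. Cre acts in cells that express Postn, so immune cells, which supply most class II transcript, were not its target.

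The targeted transcripts do not by themselves tell the libraries apart. Apart from these libraries, the study reports a marked decrease of nuclear Yap and Wwtr1 protein in reporter-positive cells of the depleted genotype. No cluster table lists Yap1 or Wwtr1. In the fibroblast subclusters the log2 fold change of Wwtr1 was 0.15, -0.30, -0.21 and -0.16 in subclusters 0, 3, 4 and 5, and that of Yap1 was above 0 in all 4, at most 0.31. The second library is therefore called the library labelled depleted, since the direction of each comparison rests on its label.

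MHC class II molecules show peptides from engulfed protein to CD4+ T cells. H2-Aa with H2-Ab1 and H2-Eb1 encode chains of the surface molecules I-A and I-E. Cd74, the invariant chain, holds the peptide groove closed on the way to the endosome. The H2-DM proteins, made of an H2-DMa and an H2-DMb chain, exchange its remnant for antigen peptide, and H2-O, which includes the H2-Oa chain, restrains H2-DM. Ciita is the coactivator that switches this gene set on together. B cells, dendritic cells and many macrophages express the set without stimulus, fibroblasts can be induced to do so by interferon gamma, and mouse T cells, natural killer cells and neutrophils make little of it.

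In the GENCODE annotation of GRCm39, 7 of the genes lie within 224.3 kb of chromosome 17, on the plus strand except H2-Aa. From the proximal end they are H2-Oa (chr17:34311314-34314328), H2-DMa (chr17:34338515-34358958), H2-DMb2 (chr17:34362197-34370529), H2-DMb1 (chr17:34372046-34379204), H2-Ab1 (chr17:34476663-34488393), H2-Aa (chr17:34493404-34506798) and H2-Eb1 (chr17:34504236-34535648). Ciita lies at chr16:10297923-10347694. H2-Aa and H2-Eb1 overlap by 2563 bases on opposite strands, and the study ran Cell Ranger with default settings, which for this chemistry count reads on the sense strand of a gene. A GENCODE transcript of H2-DMb1 (1404 bases) and one of H2-DMb2 (1462 bases) were 95% identical over 1129 aligned bases. Reads of this pair may thus be hard to tell apart, which was not tested.

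The promoters of this gene set share an arrangement through which Ciita acts. An X1 box bound by RFX, an X2 box bound by CREB and a Y box bound by NF-Y stand at fixed spacing. RefSeq promoter sequences, covering 250 bases before to 50 after each start site in GRCm38.p6, were held for 6 of the 9 genes and were searched on both strands for TGATTGG (Y box), GCAAC (X1) and GATGATG (X2), 3 strings that do not overlap in the windows shown. The Y string was in 5 of the 6 genes and in 7.82% of all 32851 promoters, the X1 string in 35.2% and the X2 string in 3.48%. A Y string together with either X string was in 3.11% of all promoters. The windows below show the shared spacing, with the strings found in capitals and the Y string at the 3′ end. Each was placed on GRCm39 by its only exact match on chromosome 17.
H2-Aa: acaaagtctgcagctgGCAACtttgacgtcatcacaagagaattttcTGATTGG
H2-Eb1: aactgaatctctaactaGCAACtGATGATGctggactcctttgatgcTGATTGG
H2-DMb2: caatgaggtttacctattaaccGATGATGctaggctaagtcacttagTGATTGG
H2-Oa: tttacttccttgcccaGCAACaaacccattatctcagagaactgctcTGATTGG
The H2-Aa window is chr17:34506841-34506894 on the minus strand, before the annotated start of H2-Aa and inside an intron of the longer GENCODE model of H2-Eb1. The others are on the plus strand, at chr17:34524733-34524786 for H2-Eb1, chr17:34364084-34364137 for H2-DMb2 and chr17:34311261-34311314 for H2-Oa. The H2-Eb1 and H2-DMb2 windows are intronic in GENCODE models that begin further upstream, and the H2-Oa window lies within BC051537 and ends on the first base of H2-Oa. The H2-Eb1 window also lies within Gm20513. From the first base of X1 to the first base of Y there were 30 bases in H2-Eb1 and 31 in H2-Aa and H2-Oa. From X2 to Y there were 24 bases in H2-Eb1 and 25 in H2-DMb2 and H2-DMb1, whose match lies within an annotated exon and is not printed. These matches describe the letters only.

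Each deposited table gives, per gene, the percent of cells with a corrected count above 0 in either library, and a log2 fold change of mean corrected counts with 1 added, depleted over control. A cluster table lists a gene only where the log2 fold change reached 0.25 in size and at least 25% of cells of 1 library had the transcript. A gene that is not listed may thus be abundant and alike in both libraries, or scarce. The tables have no column of cell numbers or depth, so no counting interval is given and differences of a few percentage points are not interpreted.

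Across the 18 clusters the class II genes were listed 41 times of 162 possible, 38 times lower and 3 times higher in the library labelled depleted, with a median log2 fold change of -0.38. Of all 15431 listings of any gene, 52.3% were lower. H2-Ab1 was listed in 10 clusters and was lower in each, from -0.26 to -2.67. H2-Eb1 and Cd74 were lower in all 6 clusters that list each, and H2-DMa and Ciita in all 4 that list each. H2-Aa was lower in 4 clusters and higher in 1, and H2-DMb1 lower in 3 and higher in 2. The percent of cells with the transcript was lower in 34 of the 41 listings, higher in 4 and equal in 3. Some differed by less than a few points. Over all listings of any gene the percent was lower in 49.9%. Every class II listing of cluster 6, Ciita in cluster 13 and H2-Aa in cluster 18 reached the share limit in control only. A lower share was fixed by that limit for these listings. Clusters were compared within the same pair of libraries and are not replicates of the genotype.

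**Figure D1:**
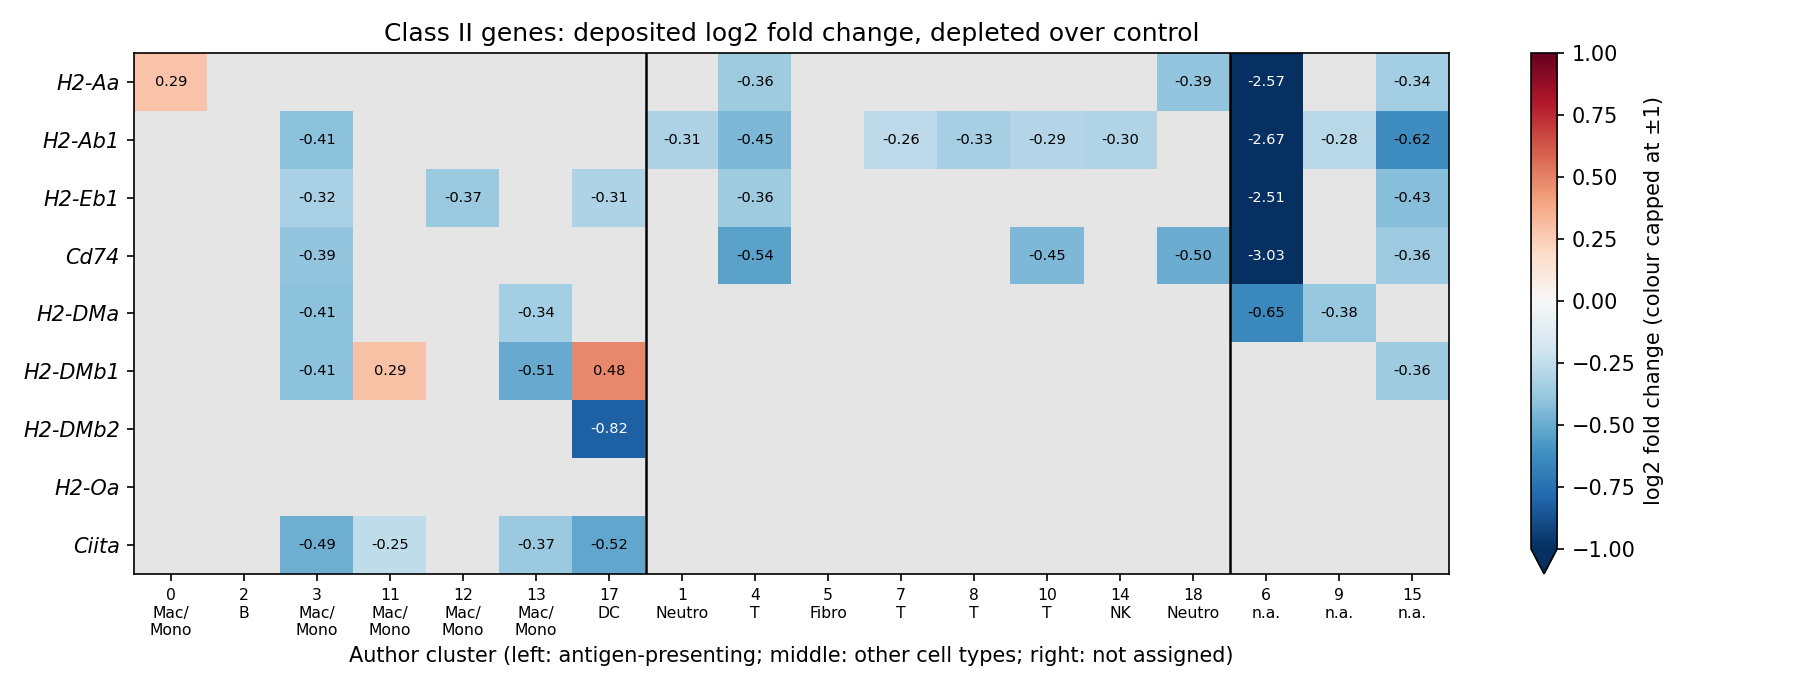
Log2 fold change, library labelled depleted over control, of the 9 class II genes (vertical) in the 18 clusters (horizontal, with the study's cell type: Mac/Mono macrophages or monocytes, B, DC dendritic cells, Neutro neutrophils, T, Fibro fibroblasts, NK, n.a. not assigned), coloured up to a size of 1. Grey cells are genes that the table does not list, and 38 of the 41 filled cells are below 0.

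The study's cell type names were used to group the clusters. The antigen-presenting group held 7 clusters (macrophages or monocytes 0, 3, 11, 12 and 13, B cells 2 and dendritic cells 17). A group of other cell types held 8 (neutrophils 1 and 18, T cells 4, 7, 8 and 10, fibroblasts 5 and natural killer cells 14). Clusters 6, 9 and 15 are missing from the study's list of named types and were kept apart, although the study relates cluster 6 to dividing T cells. Clusters 6, 9 and 10 are described there as coming mainly from the hearts labelled depleted, so their control values rest on the smaller part of the cells. In some clusters the markers listed include those of another cell type. Cluster 11, named with the macrophages, had the dendritic cell receptor Flt3 in 50% of control and 75% of depleted-library cells, while Lyz2, which encodes the myeloid lysozyme, was in 76.4% and 45.8%, the macrophage growth factor receptor Csf1r in 79.2% and 50%, and the complement gene C1qa in 31.2% and 22.9%. The neutrophil genes S100a8 (-2.99) and Retnlg (-2.75) were the lowest values of that cluster's table. The natural killer cluster 14 had the killer cell receptor Ncr1 in 98.7% and 88.5% of cells, and also Lyz2 in 83.5% and 96.2%. Lyz2 was in 93.4% and 80% of cells of T cell cluster 4. Free RNA and doublets were not removed by a named tool, and their part in the shares was not tested.

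In the antigen-presenting clusters 17 of 63 possible listings were made, 14 lower and 3 higher, with a median of -0.37. This share of 82.4% lower compares with 49.9% of all genes listed in these clusters. Control shares ran from 34.7% to 100%, with a median of 90.5%.

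Cluster 3 (macrophages or monocytes) lists 6 of the 9 genes, all lower, while 39.6% of its 359 listed genes were lower. The surface chain H2-Ab1 had a log2 fold change of -0.41 at shares of 98.9% in control and 98.1% in depleted-library cells, and H2-Eb1 was at -0.32 with 98.9% and 98.5%. The invariant chain Cd74 (chr18:60936899-60945731, plus strand) was at -0.39 with 100% and 99.3%. Nearly every cell of this cluster held these 3 transcripts in both libraries, and the difference lay in the mean count. The peptide exchange genes H2-DMa (95.4% to 90.7%) and H2-DMb1 (93.6% to 87.4%) were both at -0.41. The coactivator Ciita was the lowest of the 6, at -0.49, with 67.4% of control and 58.4% of depleted-library cells. In the same cluster the macrophage antigen Adgre1 was at 0.26, the Fc receptor Fcgr1 at 0.32 and the monocyte antigen Ly6c2 at 0.54. Lyz2 (-0.47), the integrin Itgax of dendritic cells (27% and 12.3%, -0.35), the neutrophil genes S100a8 (-0.67) and S100a9 (-0.88) and the collagen gene Col3a1 (-0.27) were lower beside class II, and their part was not tested.

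Cluster 13 (macrophages or monocytes) lists H2-DMb1 at -0.51 (70.5% in control, 53.5% in the library labelled depleted), Ciita at -0.37 (34.7% and 16.9%) and H2-DMa at -0.34 (90.5% and 70.4%). All 3 were lower in mean and in share, where 40.9% of the 893 listed genes were lower in mean. The lower share of Ciita follows from the share limit of the table, which only its control share reached. The monocyte marker Ly6c2 was in 95.8% and 88.7% of these cells (-0.40) and the chemokine receptor Ccr2 in 100% of both (-0.33). Also lower beside class II were Lyz2 (-1.36, the lowest value of the table), C1qb (52.6% and 26.8%, -0.39), the neutrophil genes S100a9 (-0.64) and Csf3r (-0.30), and the dendritic cell factor Batf3 (27.4% and 7%, -0.38). Fcgr1 was at 0.54 and S100a8 at 0.35. Their part in the class II values was not tested.

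The dendritic cell cluster 17 held the defining markers Flt3 (95% and 100%, -0.35) and Clec9a (85% and 90.9%, 0.47), and Itgax was in 65% and 54.5% (-0.43). Lyz2 was at -1.10, S100a8 at 1.17, S100a9 at 0.68 and Col3a1 at -0.63. It lists 4 class II genes, 3 lower and 1 higher, against 58.6% lower among its 1914 listed genes. H2-DMb2 was in 80% of control and 54.5% of depleted-library cells, with a log2 fold change of -0.82, and it was listed in no other cluster. Its near copy H2-DMb1 was in every cell of both libraries and stood at 0.48. The pair moved in opposite directions in mean count, with the reservation on shared reads given above. Ciita was at -0.52, although its share was 85% in control and 90.9% in the library labelled depleted. H2-Eb1 was at -0.31 with 100% in both.

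The remaining antigen-presenting clusters list few of the genes. In cluster 0 (macrophages or monocytes) H2-Aa was at 0.29, yet in 38.3% of control and 31.4% of depleted-library cells, so mean and share differ in sign. In cluster 11 H2-DMb1 was at 0.29 with 91% and 87.5%, and Ciita at -0.25 with 88.2% and 89.6%. In cluster 12 (macrophages or monocytes) H2-Eb1 was at -0.37 with 64.6% and 60.8%, beside Ccr2 (86.5% and 48.1%, -1.26), Lyz2 (-1.11), S100a9 (-0.86), S100a8 (-0.52) and the fibroblast gene Dcn (30.2% and 6.3%, -0.45), while Itgax was at 0.36. The B cell cluster 2, in which Cd79b was found in 99.5% and 98.4% of cells, lists none of the 9 genes.

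In the clusters of other cell types 12 of 72 possible listings were made, all lower, with a median of -0.36, against 50.9% lower among all genes listed there. They concern H2-Aa, H2-Ab1, H2-Eb1 and Cd74 alone, which are abundant transcripts of antigen-presenting cells. Ciita and the H2-DM genes are listed in none of these 8 clusters.

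T cell cluster 4 lists all 4 of these genes, each lower in mean and in share, where 31.8% of its 450 listed genes were lower. Cd74 was in 91.2% of control and 76.1% of depleted-library cells (-0.54), H2-Ab1 in 78.9% and 60% (-0.45), H2-Aa in 73.9% and 57.4% (-0.36) and H2-Eb1 in 68.2% and 54.8% (-0.36). The T cell receptor subunit Cd3g was in 91.2% and 96.5% of the same cells (0.42), and the myeloid Lyz2 in 93.4% and 80% (-0.35). In T cell cluster 10 Cd74 was in 63.6% and 27.4% (-0.45) and H2-Ab1 in 54.5% and 28.5% (-0.29). Beside them Lyz2 was in 54.5% and 28% (-1.07), C1qa in 36.4% and 27.4% (-0.36) and Csf1r in 36.4% and 11.8% (-0.35). Transcripts of other cells were lower too, with Col3a1 in 45.5% and 17.2% (-0.64), the endothelial Pecam1 in 45.5% and 19.4% (-0.48) and S100a9 in 45.5% and 25.8% (-0.48), whereas Cd3e (72.7% and 94.6%, 0.30) and Ly6d were higher. Class II was thus lower in cluster 10 along with transcripts of several cell types. H2-Ab1 was also lower in T cell clusters 7 (64.6% and 56%, -0.26) and 8 (55% and 50%, -0.33). Beside it in cluster 7 S100a9 was at -1.56, S100a8 at -1.27 and Col3a1 at -0.39, and in cluster 8 S100a9 was at -0.83, S100a8 at -0.41 and Lyz2 at -0.36.

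The neutrophil cluster 1 had H2-Ab1 in 95.1% of control and 96.1% of depleted-library cells, at -0.31, a share above that in any T cell cluster that lists the gene. Of the neutrophil markers, cluster 1 lists Retnlg in 85.9% and 64.1% of cells (-0.91) and G0s2 in 19.5% and 35.1% (1.18). The natural killer cluster 14 had H2-Ab1 in 74.7% and 80.8%, at -0.30. Lyz2 (83.5% and 96.2%, -0.72) and C1qb (68.4% and 80.8%, -0.65) likewise had a higher share and a lower mean there, and Ccr2 was at -0.45. The second neutrophil cluster, 18, had Cd74 in 45.5% and 29.4% (-0.50) and H2-Aa in 36.4% and 17.6% (-0.39). Lower beside them were Retnlg (63.6% and 70.6%, -0.85), Cxcr2 (81.8% and 70.6%, -0.51) and Lyz2 (100% of both, -0.49). Fibroblast cluster 5 lists none of the 9 genes. 

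Genes of the marker lists for macrophages, dendritic cells and B cells were listed as well. Over these 8 clusters 7 of the 11 macrophage and monocyte markers were listed, 13 times, 11 lower and 2 higher, at shares from 27.3% to 100% in control and from 11.8% to 100% in the library labelled depleted. Some of these are transcripts that the cells of the cluster also make, such as Lyz2 in neutrophil clusters 1 and 18, and the 2 higher listings were Ly6c2 in clusters 7 and 14, which T and natural killer cells can express. From the dendritic cell list came only Ccr7 in T cell cluster 8 (81.9% and 75%, -0.35) and Itgax in natural killer cluster 14 (50.6% and 30.8%, -0.26), genes that these cell types express as well. The B cell list was represented by Ly6d alone, higher in cluster 10 (45.5% and 65.6%). Over all 18 clusters Lyz2 was lower in 12 of 13 listings and the neutrophil gene S100a9 in 12 of 13. The part of free RNA in the class II values of these clusters was not tested.

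**Figure D2:**
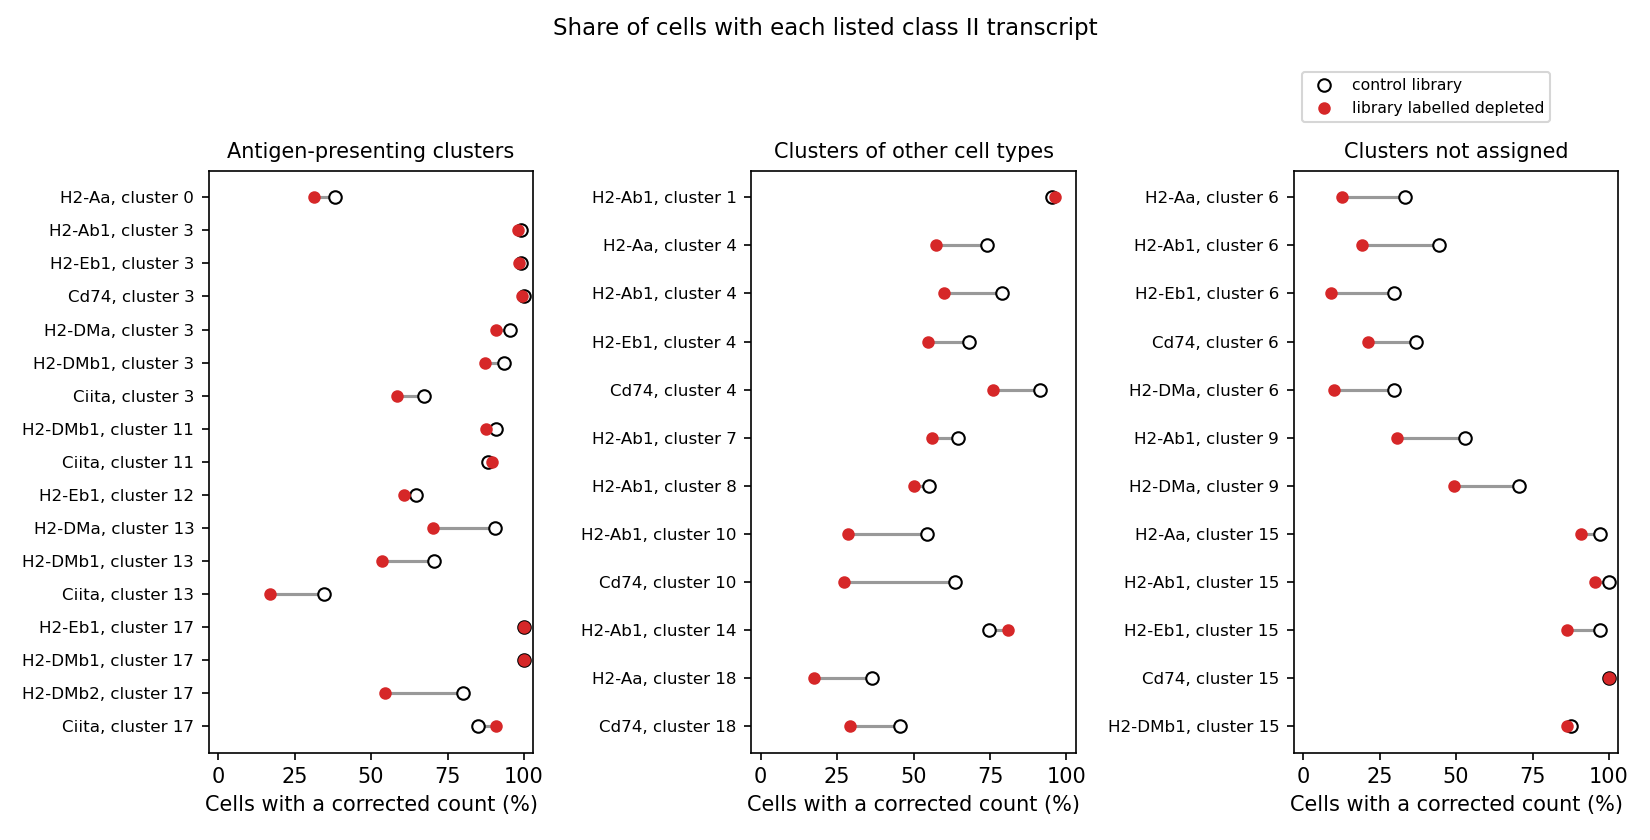
Percent of cells with a corrected count above 0 (horizontal) for each of the 41 listings of a class II gene, in the control library (open) and the library labelled depleted (red), joined by a line. The left panel holds antigen-presenting clusters, the middle panel clusters of other cell types and the right panel clusters with no name. The red point is to the left in 34 listings, for some of which only the control share reached the share limit of the table.

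The clusters with no name gave 12 of 27 possible listings, all lower, with a median of -0.52, against 59.1% lower among all genes listed there. Cluster 6 held the largest differences. Cd74 was in 37% of control and 21.4% of depleted-library cells, at -3.03. H2-Ab1 was in 44.4% and 19.4%, at -2.67. H2-Aa was in 33.3% and 12.7%, at -2.57, and H2-Eb1 in 29.6% and 9%, at -2.51. These were the 4 lowest values of the 703 genes listed in cluster 6. H2-DMa was at -0.65, with 29.6% and 10.1%. All 5 class II genes listed there were thus lower, where 63.3% of the listed genes were. For each of the 5, only the control share reached the share limit of the table. Their lower shares therefore follow from that limit, which does not fix the sign of the log2 fold change. The log2 ratio of shares was smaller in size than the log2 fold change for Cd74 (-0.79) and for H2-Ab1 (-1.19), so the mean among cells that held the transcript was lower as well. Among the next values were BC018473 at -2.50, in 96.3% and 0.6% of cells, the calcium-binding S100a4 at -1.19 and the myeloid adaptor Tyrobp at -1.14, in 33.3% and 13.8%. C1qb was at -0.58, in 33.3% and 17.2%, and S100a9 at -0.26, in 59.3% and 18.6%. Ly6d was higher, at 0.88, in 29.6% and 60.8%. B cell, dendritic cell and macrophage markers other than Ly6d and C1qb are not listed in cluster 6.

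**Figure D3:**
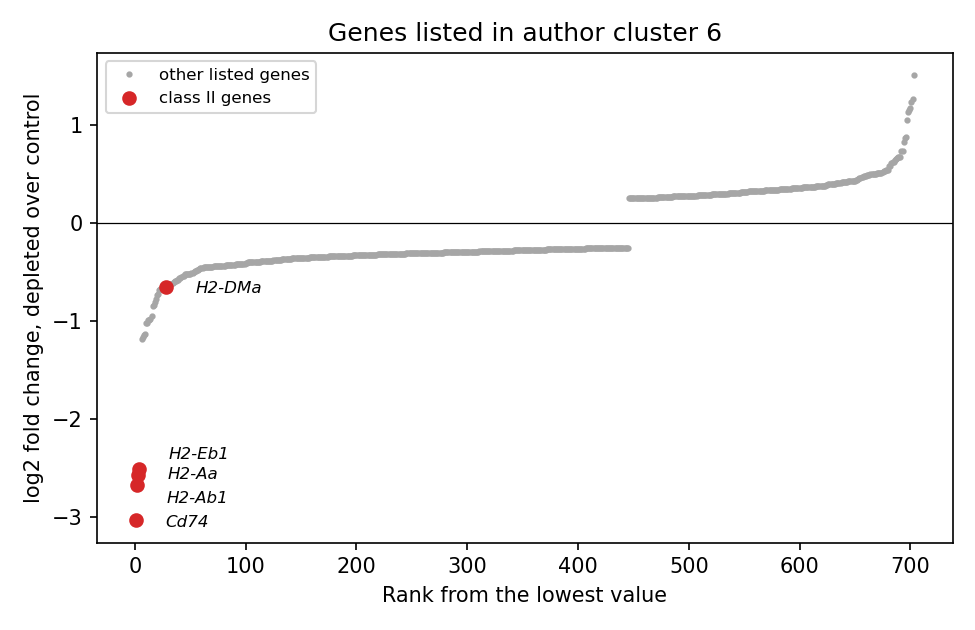
Log2 fold change (vertical) of the 703 genes listed in cluster 6, ordered from the lowest (horizontal), with the 5 class II genes in red. Cd74, H2-Ab1, H2-Aa and H2-Eb1 occupy the 4 lowest ranks, below -2.5, and the gap around 0 is the table's limit of 0.25.

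In cluster 15, which the study left unidentified or as mixed in its markers, all of the class II genes listed were lower, 5 in number, against 52.7% of its 1376 listed genes. H2-Ab1 was in 100% and 95.5% of cells (-0.62), H2-Eb1 in 96.9% and 86.4% (-0.43), Cd74 in 100% of both (-0.36), H2-DMb1 in 87.5% and 86.4% (-0.36) and H2-Aa in 96.9% and 90.9% (-0.34). The dendritic cell gene Clec9a was in 40.6% and 63.6% of these cells and Ly6d in 87.5% and 72.7%. Beside class II, S100a9 was in 62.5% and 22.7% (-0.63), S100a8 in 62.5% and 27.3% (-0.36), Col3a1 in 50% and 18.2% (-0.51), Pecam1 in 53.1% and 31.8% (-0.36) and the T cell coreceptor Cd8a in 56.2% and 27.3% (-1.30). Lyz2 was in 56.2% and 31.8% but at 0.36, and Cd4 in 34.4% and 63.6% at 0.80. The part of RNA from other cells was not tested. In cluster 9, which had Cd3g in 94.1% and 97.9% of cells, H2-DMa was in 70.6% and 49.2% (-0.38) and H2-Ab1 in 52.9% and 30.7% (-0.28). Lower beside them were S100a8 (58.8% and 27.5%, -0.32), Col3a1 (41.2% and 16.9%, -0.31), Ly6d (100% and 79.4%, -0.57) and the granzyme Gzma (82.4% and 58.2%, -1.64), and Cd79b was higher (23.5% and 38.1%, 0.41).

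By share in the control library, H2-Ab1 stood in the order cluster 15 (100%), 3 (98.9%), 1 (95.1%), 4 (78.9%), 14 (74.7%), 7 (64.6%), 8 (55%), 10 (54.5%), 9 (52.9%) and 6 (44.4%). With no cell numbers, neighbours in this order cannot be separated from each other. The order mixes clusters named as presenting and as not presenting.

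The fibroblast subclusters were listed without limits, so a value is given whatever its size. For 8 class II genes in 4 subclusters there were 32 values, 25 below 0, 5 above and 2 at 0, the last where Ciita was in no cell of either library. Over all genes 47.6% of values were below 0. Without H2-DMb2 and Ciita, which few cells held, 20 values were below 0 and 4 above. The mean share over the 8 genes was lower in the library labelled depleted in each subcluster, at 58.1% and 39% in subcluster 0, 50% and 35.9% in subcluster 3, 52.8% and 40% in subcluster 4, and 40.2% and 26.2% in subcluster 5. Shares over all genes were not summarised for the subclusters, so a general difference in detection between the libraries was not tested. The study describes subclusters 0 and 4 as coming mainly from control hearts, so their depleted-library values rest on the smaller part of the cells. Subclusters 1 and 2 are not analysed here.

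The surface chains were below 0 in all 4 subclusters. H2-Ab1 was in 94.5% of control and 65.6% of depleted-library cells of subcluster 0 (-0.22), 76.7% and 47.8% of subcluster 3 (-0.48), 87.5% and 70% of subcluster 4 (-0.99) and 69.6% and 42.9% of subcluster 5 (-0.79). H2-Eb1 was in 79.3% and 59.4% (-0.29), 70% and 60.9% (-0.26), 82.5% and 40% (-0.93), and 69.6% and 33.3% (-0.55) in the same order. H2-Aa was in 82.1% and 50% (-0.25), 76.7% and 34.8% (-0.48), 82.5% and 70% (-0.31), and 65.2% and 57.1% (-0.42). For these 3 genes the share was lower in the library labelled depleted in each subcluster.

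Cd74 behaved otherwise in mean. Control and depleted-library shares were 97.2% and 62.5% in subcluster 0 (0.01), 90% and 78.3% in subcluster 3 (0.02), 92.5% and 80% in subcluster 4 (-0.09), and 78.3% and 57.1% in subcluster 5 (-0.75). The share was thus lower in all 4 subclusters while the mean was near 0 in the first 3. H2-DMb1 was at -0.43, 0.04, -0.32 and -0.10, and H2-DMa at -0.27, -0.03, 0.18 and -0.08. Their control shares ran from 17.4% to 57.9%. H2-DMb2 was in at most 6.7% of cells and Ciita in at most 8.3% of any subcluster and library, levels at which no direction is read.

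Among genes present in 25% or more of the cells of 1 library or both, 5 of 6 class II genes were below 0 in subcluster 0, where 47.1% of 8490 genes were. The counts were 4 of 6 in subcluster 3 (51.1% of 9015 genes), 5 of 6 in subcluster 4 (44.7% of 9130) and 4 of 4 in subcluster 5 (51.6% of 8349). The class II shares are high for fibroblasts, and the cells also held macrophage transcripts. Lyz2 was in 89% and 50% of cells of subcluster 0 (-1.83), 80% and 47.8% of subcluster 3 (1.75), 90% and 70% of subcluster 4 (-1.49) and 82.6% and 47.6% of subcluster 5 (0.05). The mean share over the 11 macrophage and monocyte markers was 43.3% and 25.8%, 40% and 32.8%, 41.6% and 33.6%, and 33.6% and 25.1% in the 4 subclusters. By mean count 5, 10, 1 and 9 of the 11 were above 0. C1qa, the highest of them in subcluster 0, was at 0.53, 1.45, -0.14 and 1.05 in the 4 subclusters. The neutrophil genes S100a8 (-3.96, -2.26, -2.71 and 0.13) and S100a9 (-3.90, -2.88, -2.35 and 0.10) were among the 4 lowest of all 15059 genes in subclusters 0, 3 and 4 but not in 5. The 6 neutrophil markers had mean shares of 43.1% and 17.2%, 41.1% and 21%, 40.8% and 21.7%, and 38.4% and 34.1%. The 5 T cell markers with a value went the other way, with 6.1% and 11.2%, 6.7% and 18.2%, 5% and 22%, and 2.6% and 19.1%. The dendritic cell list, of which Flt3, Xcr1 and Clec9a had no value, had mean shares of 18.9% and 16.1%, 19.5% and 14.3%, 20% and 18.6%, and 16.1% and 13.6%, and the 2 natural killer markers with a value had 7.9% and 1.6%, 10% and 2.2%, 10% and 0%, and 10.8% and 0%. The dendritic cell means rest mostly on Fscn1, at 86.9% and 87.5%, 93.3% and 73.9%, 97.5% and 100%, and 91.3% and 66.7%. Itgax, Ccr7, Cd209a, Batf3 and Ccl22 were each in at most 13.3% of cells of any subcluster and library. The B cell list had a mean share of at most 7.8% in any library, with Cd79a, Ms4a1 and Ly6d at 0 in the depleted-library cells of subclusters 4 and 5. The part of RNA from these cell types in the class II values was not tested.

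**Figure D4:**
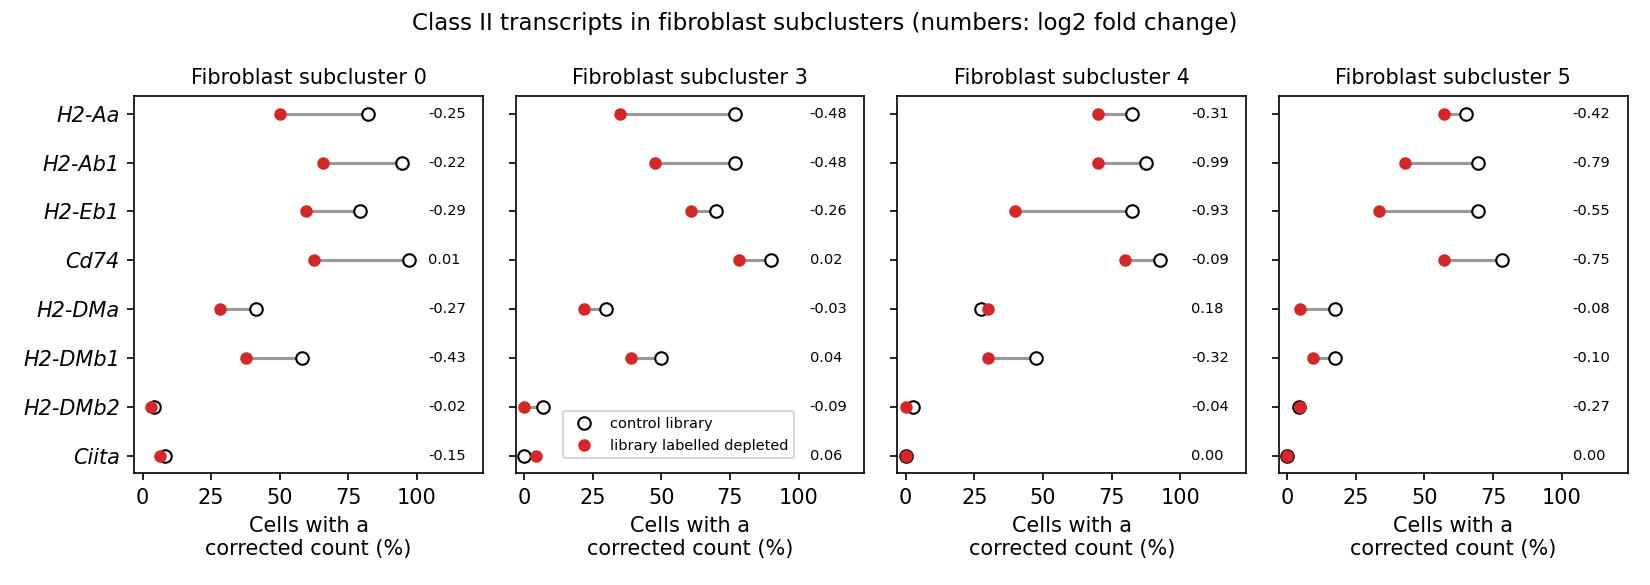
Percent of cells with a corrected count above 0 (horizontal) for the 8 class II genes with a value, in fibroblast subclusters 0, 3, 4 and 5, in the control library (open) and the library labelled depleted (red). The numbers at the right of each panel are log2 fold changes, and the surface chains H2-Aa, H2-Ab1 and H2-Eb1 are below 0 in all 4 panels.

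The wider pathway was read from a list of 31 genes for the regulators, proteases, costimulators and interferon signalling around class II. Of these, 24 were listed in at least 1 cluster, 75 times in all, 39 lower and 36 higher, against 52.3% lower among all listings. In antigen-presenting clusters they were lower 16 times and higher 17 times, in clusters of other cell types lower 11 and higher 16 times, and in the unnamed clusters lower 12 and higher 3 times. A predominance of lower listings like that of the class II genes was not seen in the first 2 groups. The interferon-induced thiol reductase Ifi30, which unfolds antigen in the endosome, was lower in 5 and higher in 2 of 7 clusters. It was at -1.02 in B cell cluster 2 (99.5% and 89.4%), 0.80 in cluster 11 and 0.40 in cluster 17. The ubiquitin ligase Marchf1, which removes class II from the surface, was lower in 4 of 5 clusters, among them cluster 13 at -0.52 (81.1% and 54.9%) and cluster 17 at -0.27, and higher in cluster 0 at 0.29. 

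The endosomal proteases varied by cluster. Ctsd was lower in 4 and higher in 3 of 7 clusters, from -0.90 in cluster 11 to 0.68 in cluster 13. Ctsb was lower in 2 and higher in 3 of 5, and Ctsl lower in 1 and higher in 3 of 4, with 1.24 in cluster 13. Cluster 13 thus had these 3 proteases higher (Ctsb at 0.52) and H2-DMa, H2-DMb1 and Ciita lower. Irf8, a transcription factor of monocytes and dendritic cells, was at -0.55 in cluster 13 and -0.41 in cluster 12, and at 0.56 in natural killer cluster 14. The interferon receptor kinase Jak1 was at -0.28 in cluster 11 and -0.35 in cluster 17. In the 4 subclusters 28 genes of the list had values, and 18, 10, 18 and 13 of them were below 0 in subclusters 0, 3, 4 and 5. Of all 15059 genes 50.4%, 47.9%, 47.4% and 44.6% were.

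MHC class I, which shows peptides from inside the cell and also responds to interferon, was read from B2m, H2-K1 and H2-D1. These 3 genes were listed 30 times in the clusters, 21 higher and 9 lower, against 52.3% lower among all listings. In all 12 subcluster values they were above 0, from 0.41 to 1.53. In cluster 3, where the 6 class II genes were lower, B2m was at 0.67, H2-K1 at 0.53 and H2-D1 at 0.31. In cluster 6 all 3 class I genes were lower, at -0.45 for B2m, -0.56 for H2-K1 and -0.67 for H2-D1. H2-K1 and H2-D1 were also lower in T cell clusters 4 (-0.30 and -0.44) and 10 (-0.49 and -0.62), where class II genes were lower. In dendritic cell cluster 17 H2-K1 was at -0.58 and H2-D1 at -0.25.

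The genes with values most like those of H2-Ab1 were sought over its 10 clusters, among the 11 genes listed in at least 9 of them. By mean absolute difference in log2 fold change they included the ribosomal protein gene Rps3a1 (0.397), the ferritin light chain Ftl1 (0.524), Rpl34-ps1 (1.27) and BC018473 (1.29). Rps3a1 and Ftl1 were lower in all 9 clusters that list each, and BC018473 in all 10, from -0.81 to -2.86. Rpl34-ps1 was higher in all 9 that list it, from 0.36 to 0.89, opposite to H2-Ab1. No other class II gene was listed in enough of these clusters to be a candidate. The measure takes in the size of the values as well as their direction.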

How the data were processed

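The 2 single-cell libraries, 1 per genotype, are set side by side. The authors aligned reads with Cell Ranger 6.1.1 to GRCm39 with NCBI annotation release 109 and reporter sequences, normalized with SCTransform in Seurat, clustered the cells and removed low-quality ones, and no doublet caller is named. The deposited tables, made with Seurat FindMarkers, hold per gene the fraction of each library's cells in which the corrected count was above 0, a log2 fold change and p-values over cells. The fractions, printed as percent, and the log2 values were used as deposited. The p-value columns were not used, since cells are not replicates. Cluster 16 and fibroblast subclusters 1 and 2 are not analysed here, and a script of the authors was read only for methods.

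Rows were taken by gene symbol (Python 3.11.15, pandas 2.3.3) and counted by direction, and the counting was tested on simulated data. All 9 genes are named. Of the wider list, up to 8 genes found in the most antigen-presenting clusters are named, with ties settled by symbol. Genes like H2-Ab1 are the 5 with the smallest mean absolute difference. Some genes that these rules pick are not reported here. BC018473, S100a4 and Tyrobp in cluster 6, and the markers shown, were picked from their lists after their values were seen. The genes and lists were chosen with earlier results of these data known. The alternatives tried were the log2 ratio of shares, values centred on each table's median, a size limit of 0.5, a share limit of 50%, and classes without single clusters. Depth and cell numbers per cluster are not in the tables, and depth is unknown, so no interval or floor is given. Promoter and gene positions were read with Biopython 1.88.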

Additional observations from a re-analysis of the deposited data

Results flagged for a closer look

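Across clusters under the same contrast, 2 of the genes stood on opposite sides of 0. The difference between clusters was not tested, as each genotype had 1 library. H2-Aa was at -2.57 in cluster 6 (33.3% of control and 12.7% of depleted-library cells) and at 0.29 in cluster 0 (38.3% and 31.4%), where the share was nonetheless lower. H2-DMb1 was at -0.51 in cluster 13 (70.5% and 53.5%) and at 0.48 in cluster 17, where every cell of both libraries held it.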

How the results depend on the processing

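No paired analysis was possible because there was 1 library per genotype, which also allowed no replicate to be left out. With the log2 ratio of shares in place of the log2 fold change, signs turned for H2-Aa in cluster 0 (-0.29), H2-Ab1 in clusters 1 (0.0151) and 14 (0.11), H2-DMb1 in cluster 11 (-0.0566), Ciita in clusters 11 (0.0227) and 17 (0.10), and, in fibroblast subclusters, Cd74 in 0 (-0.64) and 3 (-0.20), H2-DMb1 in 3 (-0.35) and H2-DMb2 in 5 (0.16). It left 2 listings higher in the clusters of other cell types and 2 values higher in the subclusters. Centred on each table's median, H2-Ab1 in clusters 7 (0.0232) and 9 (0.0014) and Ciita in cluster 11 (0.0018) turned above 0, which left 1 listing higher in the clusters of other cell types and 1 in the unnamed clusters. Sizes changed more often than signs. Of the 41 cluster values, 34 kept their sign but changed by more than a factor of 1.5 on centring. The log2 ratio of shares changed the size of 25 of the 41 that much, and of 15 of 27 subcluster values. With a size limit of 0.5 the antigen-presenting clusters kept 3 listings lower and 0 higher, those of other cell types 1 lower, the unnamed clusters 6 lower, the subclusters 5 lower and 0 higher, and the wider pathway list 9 lower and 12 higher. With a share limit of 50% the subclusters kept 15 lower and 3 higher, the unnamed clusters 7 lower and the pathway list 22 higher. Without clusters 6 and 9, chosen after seeing the data, the unnamed clusters kept 5 lower. Fewer listings pass a stricter limit by its construction, and the cause of the other changes was not tested. Without cluster 6 the 18 clusters gave 33 lower and 3 higher. With cluster 6 counted among the clusters of other cell types, also chosen after seeing the data, these gave 17 lower and 0 higher. One library per genotype and cell numbers that the tables do not give limit every value.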
